A study of Mus musculus with 8 samples.

Results

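The 7 genes followed here mark the autonomic nerve supply of the heart and its Schwann cells, and were measured in hearts of 4 Dio3+/+ and 4 Dio3-/- mouse fetuses: *Sox10*, *Foxd3*, *Phox2a*, *Th*, *Dbh*, *Prph* and *Chrna3*. They were taken by symbol from 26590 gene symbols in 51414 transcript rows, and all 7 were found, in 11 rows. Where a gene had more than 1 row, as 3 did, its values are those of the most abundant row, averaged over the genotypes. The fetuses were C57BL/6J, a background onto which the *Dio3* null allele had been backcrossed, and the design text calls them male. Dio3+/+ fetuses have the wild-type gene of type 3 deiodinase, the enzyme that inactivates thyroid hormones, and Dio3-/- fetuses lack this enzyme in every tissue. Each library came from the whole heart of 1 fetus, and no hormone or drug was given. The sample titles give E13.5 for all 8 hearts, and the age field gives E18.5 for 2 of the 4 Dio3-/- hearts and E13.5 for the other 6. The Methods of the study give a day between these for all hearts. The ages are therefore not settled by the sources, so a difference in age within the Dio3-/- group cannot be told apart from genotype in these values. Total RNA was depleted of ribosomal RNA and sequenced. The table gives the authors' mean for each genotype, read as RPKM (reads scaled to transcript length and library total), and the coefficient of variation (CV, the SD between hearts divided by the mean). Values for single hearts and read totals are not part of it, so the depth of each sample cannot be read from it; the Methods state how many reads were aligned, a figure not used here.

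The nerves of the heart come from the neural crest. Crest cells express *Sox10* and *Foxd3*, and *Sox10* stays on in the Schwann cells that ensheath axons. Cells that become autonomic neurons switch on *Phox2a*, which in turn acts on *Th* and *Dbh*, the genes of noradrenaline synthesis. *Prph* encodes peripherin, an intermediate filament of peripheral axons, and *Chrna3* the alpha 3 subunit of the nicotinic receptor through which autonomic ganglia receive their input. Around this stage crest-derived neurons gather near the great vessels and the base of the heart, and sympathetic axons reach the muscle later in gestation.

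All 7 transcripts were scarce in these hearts, and none differed between Dio3+/+ and Dio3-/- hearts after adjustment. Their means ran from 0.02 to 0.67 RPKM, so 0 of the 7 were above the 1 RPKM at which rows were tested in the study's own filter. The means of 3 were higher and of 4 lower in Dio3-/- hearts. The *Dio3* transcript itself, with 0.35 RPKM (CV 1.23) in Dio3+/+ and 0.13 RPKM (CV 0.76) in Dio3-/- hearts, was too scarce to check the genotype labels (adjusted P = 0.589 by limma among all rows above 0). The study used a different allele, a full deletion of the gene, as its control without *Dio3* RNA. Whether the Dio3-/- allele still yields RNA is not stated in the sources used here. The tissue label was checked with heart muscle genes, of which 10 of 10 (*Tnnt2*, *Actc1*, *Ttn*, *Ryr2*, *Nkx2-5*, *Myl7*, *Myl2*, *Nppa*, *Myh7* and *Myh6*) had means between 24.2 and 5638 RPKM. *Sox10*, the highest of the 7, had 15619 of the 26590 symbols above it, and *Foxd3*, the lowest, had 19327 above it. Multiplied by the longest coding transcript in GENCODE, the means stand for 2.05 to 18.6 reads per 10000000 mapped reads in Dio3+/+ hearts and 0.465 to 13.3 in Dio3-/- hearts. In whole hearts, fewer nerve cells and less RNA per nerve cell cannot be told apart.

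With every row above 0 RPKM tested, limma gave 0 calls among the 7 at an adjusted P value under 0.05, against 0.794% of 24817 genes (197 genes). Their adjusted P values ran from 0.16 to 0.939. At an unadjusted P value under 0.05 by limma there was 1 of the 7 (*Prph*), against 14.0% of all genes. The count after adjustment was also 0 with a pseudocount of 0.1 RPKM (0.899% of all genes), with centring on the median log2 ratio and with Welch's test on the RPKM scale (0.0121%). At an unadjusted P value under 0.05 there were 2 of the 7 (*Prph* and *Foxd3*) with the pseudocount of 0.1, against 14.5% of genes, and 0 with Welch's test, against 11.1%. The median log2 fold change, on the log2(RPKM + 0.5) scale, was -0.02 over the 7 genes and 0.02 over all genes. That test finds few changes at this level: in simulated hearts with means between 0.05 and 1 RPKM, it recovered 12 of 100 changed rows at 2-fold and 38 of 100 at 4-fold, among 48503 rows.

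**Figure D1:**
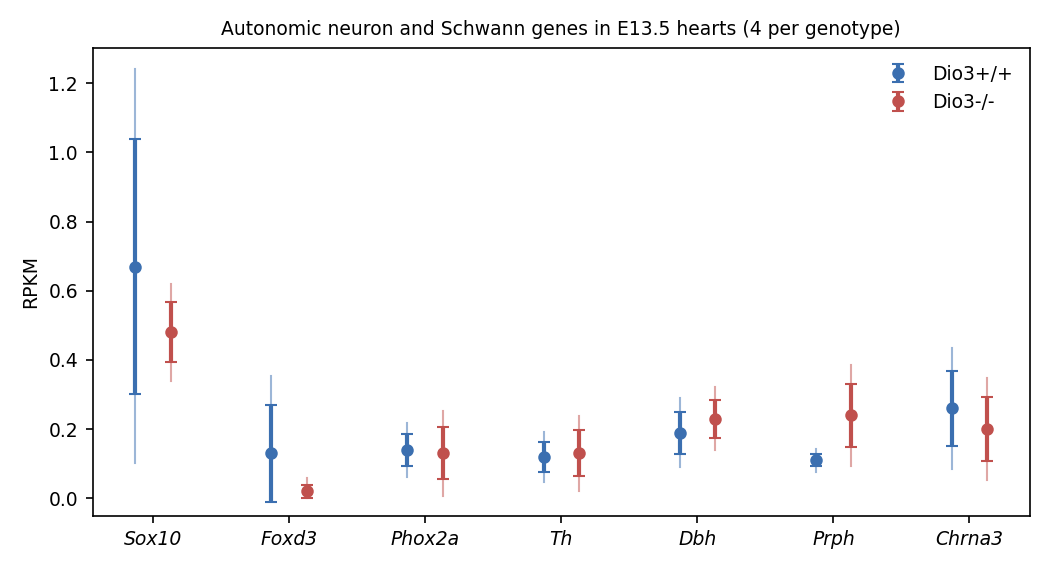
Mean RPKM (y axis) of the 7 genes in Dio3+/+ (blue) and Dio3-/- (red) hearts, 4 per genotype; thick bars are 1 SD, from the deposited CV, and thin lines are the widest range that 4 hearts with that mean and CV can span. The means lie between 0.02 and 0.67 RPKM, and for each gene the thin lines of the genotypes share part of their range.

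Although the single hearts are not in the table, a mean and a CV of 4 hearts limit them. The highest heart lies at least 0.5 SD and at most 1.5 SD above the mean, and the lowest heart equally far below. These limits, with rounding of the table taken at its worst, show that the genotypes overlapped for 5 of the 7 genes, leave 2 (*Foxd3* and *Prph*) undecided, and show separation for 0. Among 5658 genes with a mean between 0.05 and 1 RPKM, 59.4% overlapped by the same limits and 0.954% were separate.

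*Sox10*, the transcription factor of crest and Schwann cells, had a mean of 0.67 RPKM (CV 0.55) in Dio3+/+ and 0.48 RPKM (CV 0.18) in Dio3-/- hearts. The highest Dio3+/+ heart was between 0.846 and 1.24 RPKM, above every Dio3-/- heart, the highest of which was at most 0.62 RPKM. The lowest Dio3+/+ heart was at most 0.494 RPKM, so the groups overlapped. The log2 fold change was -0.26 (95% confidence interval -0.71 to 0.20, adjusted P = 0.619 by limma). The second row of *Sox10* had 0.36 RPKM (CV 0.69) and 0.32 RPKM (CV 0.14), again with the wider spread in Dio3+/+ hearts.

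*Foxd3*, an early crest factor that is switched off as most crest cells differentiate, had the lowest level and the largest ratio of the 7. Its mean was 0.13 RPKM (CV 1.08) in Dio3+/+ and 0.02 RPKM (CV 0.88) in Dio3-/- hearts. The ratio of these means is 6.5, and the rounding of the table to 2 decimals allows from 5.0 to 9.0. At least 1 Dio3+/+ heart was above all Dio3-/- hearts, since the highest was at least 0.192 RPKM and the highest Dio3-/- heart at most 0.0582 RPKM. The lowest Dio3+/+ heart was at most 0.0678 RPKM and may have been at 0, so whether the groups overlapped is undecided. The SD in Dio3+/+ hearts (0.14 RPKM) exceeded the mean, and the difference did not pass the test, with a log2 fold change of -0.28 (95% confidence interval -0.59 to 0.03, adjusted P = 0.407 by limma). On the log2(RPKM + 0.1) scale, which compresses low values less, it was -0.94 (95% confidence interval -1.79 to -0.09, unadjusted P = 0.0338 and adjusted P = 0.281 by limma). The mean of 0.02 RPKM stands for 0.465 reads per 10000000. In GENCODE 3.83% of the exonic bases of *Foxd3* also belong to a microRNA gene on the same strand, Gm23366.

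*Phox2a*, the homeodomain factor of autonomic neurons, had similar means in the genotypes. It had 0.14 RPKM (CV 0.33) in Dio3+/+ and 0.13 RPKM (CV 0.58) in Dio3-/- hearts, for a log2 fold change of -0.02 (95% confidence interval -0.23 to 0.18, adjusted P = 0.939 by limma). On the log2(RPKM + 0.1) scale the interval reached from -0.62 to 0.50, so a difference of that size either way is not excluded. The hearts ran within 0.0621 to 0.218 RPKM in Dio3+/+ and within 0.00654 to 0.253 RPKM in Dio3-/- fetuses. In GENCODE 4.67% of the exonic bases of *Phox2a* are also exonic, on the opposite strand, in *Inppl1*, and the sources used here do not say whether reads were counted by strand.

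*Th*, tyrosine hydroxylase, which catalyses the rate-limiting step of catecholamine synthesis, had 0.12 RPKM (CV 0.36) in Dio3+/+ and 0.13 RPKM (CV 0.51) in Dio3-/- hearts. Its log2 fold change was 0.02 (95% confidence interval -0.16 to 0.21, adjusted P = 0.928 by limma), and with centring of the genotypes it was -0.0004, so it has no direction. *Dbh*, dopamine beta-hydroxylase, which turns dopamine into noradrenaline, had 0.19 RPKM (CV 0.32) and 0.23 RPKM (CV 0.24), a log2 fold change of 0.08 (95% confidence interval -0.10 to 0.26, adjusted P = 0.694 by limma). For both enzymes the hearts of the genotypes overlapped. The intervals are on the log2(RPKM + 0.5) scale and narrow for that reason: on the log2(RPKM + 0.1) scale they reached from -0.46 to 0.59 for *Th* and from -0.25 to 0.63 for *Dbh*.

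*Prph* had the lowest unadjusted P value of the 7. It had 0.11 RPKM (CV 0.16) in Dio3+/+ and 0.24 RPKM (CV 0.38) in Dio3-/- hearts, a ratio of 2.18, for which rounding allows 2.04 to 2.33. At least 1 Dio3-/- heart, at 0.279 RPKM or more, was above all Dio3+/+ hearts, which were at most 0.143 RPKM. The lowest Dio3-/- heart was between 0.0935 and 0.201 RPKM, so an overlap is undecided. The log2 fold change was 0.28 (95% confidence interval 0.09 to 0.47, unadjusted P = 0.00876 and adjusted P = 0.16 by limma), and on the log2(RPKM + 0.1) scale it was 0.70 (adjusted P = 0.138 by limma). Welch's test on the RPKM scale, run across all rows without limma, gave it an unadjusted P value of 0.0625 and an adjusted P value of 0.45. The other rows of *Prph* had 0.12 and 0.22 RPKM, and 0.11 and 0.20 RPKM. They are transcripts of the same gene that share reads and add no independent support.

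*Chrna3* had 0.26 RPKM (CV 0.42) in Dio3+/+ and 0.20 RPKM (CV 0.46) in Dio3-/- hearts, and the groups overlapped. The log2 fold change was -0.12 (95% confidence interval -0.40 to 0.16, adjusted P = 0.716 by limma). Its second row had 0.04 and 0.06 RPKM, a difference in the other direction (log2 fold change 0.05). The neighbours of *Chrna3* in the same gene cluster, which encode subunits that assemble with it in ganglia, were *Chrnb4*, with 0.76 RPKM (CV 0.16) and 0.55 RPKM (CV 0.25), and *Chrna5*, with 0.13 RPKM in both genotypes. *Chrnb4* was also below 1 RPKM, and among all rows above 0 it had an unadjusted P value of 0.0436 and an adjusted P value of 0.323 by limma.

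**Figure D2:**
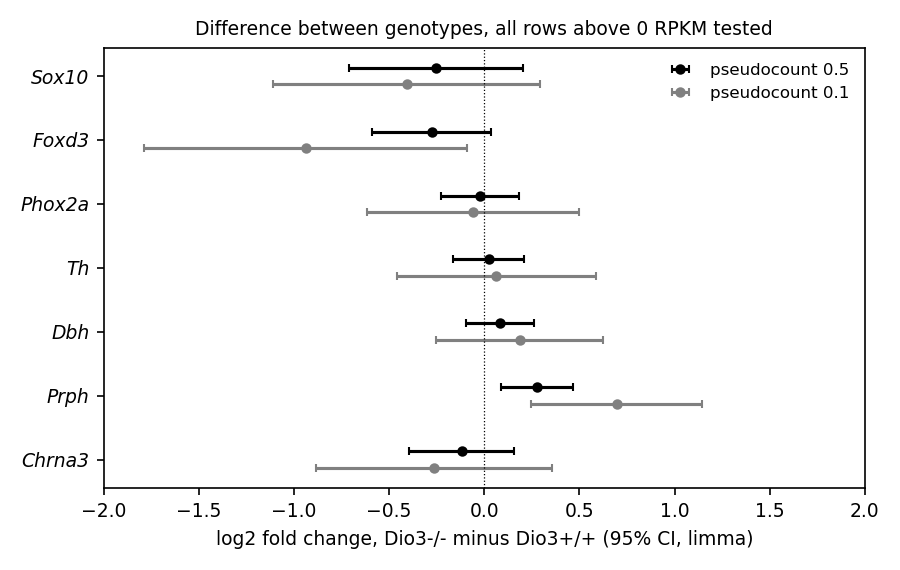
Log2 fold change of the 7 genes (x axis; positive is higher in Dio3-/- hearts) with 95% confidence intervals by limma, on the log2(RPKM + 0.5) scale (black) and the log2(RPKM + 0.1) scale (grey). The interval lies above 0 for Prph on both scales and below 0 for Foxd3 with the smaller pseudocount, before any adjustment for the number of rows.

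The order of the levels was loose. In Dio3+/+ hearts it was *Sox10* (0.67 RPKM), *Chrna3* (0.26), *Dbh* (0.19), *Phox2a* (0.14), *Foxd3* (0.13), *Th* (0.12) and *Prph* (0.11), and no neighbours in this order differed by more than the sum of their SDs. In Dio3-/- hearts *Sox10* (0.48 RPKM) exceeded the next gene, *Prph* (0.24), by 0.24 RPKM, more than the sum of their SDs of 0.178. *Th* and *Phox2a* (0.13 RPKM each) exceeded *Foxd3* (0.02), *Th* by 0.11 RPKM against a sum of 0.0839. *Prph*, *Dbh* (0.23) and *Chrna3* (0.20) did not differ beyond their spread in Dio3-/- hearts.

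The spread between hearts of these 7 genes was near that of other scarce transcripts in Dio3+/+ hearts and wider in Dio3-/- hearts, a difference that was not tested. Their median CV was 0.36 in Dio3+/+ and 0.46 in Dio3-/- hearts, and that of the 5658 genes between 0.05 and 1 RPKM was 0.38 and 0.32. The rows above 1 RPKM had medians of 0.09 and 0.06. The CV was larger in Dio3+/+ hearts for 3 of the 7 (*Sox10*, *Foxd3* and *Dbh*) and larger in Dio3-/- hearts for 4. Both crest factors were among the 3. A CV above 0.4 was found for 3 of the 7 in Dio3+/+ hearts, against 45.8% of genes between 0.05 and 1 RPKM, and for 4 in Dio3-/- hearts, against 38.5%.

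The promoters of 3 of the genes are printed, although none of the genes passed the test. *Prph* and *Foxd3* had the lowest unadjusted P values, and *Th* is the gene that defines catecholamine cells. Each runs from 250 bases before to 50 bases after the start of the gene in RefSeq on GRCm38.p6, 5′ to 3′ on the strand of the gene, at chr15:99054924-99055223 (plus strand) for *Prph*, chr4:99656049-99656348 (plus strand) for *Foxd3* and chr7:142899946-142900245 (minus strand) for *Th*. Capitals mark any of 4 motifs searched on both strands: TGACGTCA (the cAMP response element), AGGTCA (the core element of nuclear receptors, thyroid hormone receptors among them), TATAAA (the TATA box) and GGGCGG (the GC box).
Prph: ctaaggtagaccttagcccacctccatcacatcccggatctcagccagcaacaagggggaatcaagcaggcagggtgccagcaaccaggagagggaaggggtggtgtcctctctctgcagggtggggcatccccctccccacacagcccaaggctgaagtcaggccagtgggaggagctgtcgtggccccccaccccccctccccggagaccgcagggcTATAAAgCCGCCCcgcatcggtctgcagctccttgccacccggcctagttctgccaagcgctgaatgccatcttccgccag
Foxd3: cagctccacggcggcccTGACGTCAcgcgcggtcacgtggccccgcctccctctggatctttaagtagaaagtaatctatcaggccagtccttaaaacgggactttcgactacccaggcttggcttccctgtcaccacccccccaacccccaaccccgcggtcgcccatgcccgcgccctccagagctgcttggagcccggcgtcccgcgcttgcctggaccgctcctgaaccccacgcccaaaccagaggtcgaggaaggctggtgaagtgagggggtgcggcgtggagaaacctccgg
Th: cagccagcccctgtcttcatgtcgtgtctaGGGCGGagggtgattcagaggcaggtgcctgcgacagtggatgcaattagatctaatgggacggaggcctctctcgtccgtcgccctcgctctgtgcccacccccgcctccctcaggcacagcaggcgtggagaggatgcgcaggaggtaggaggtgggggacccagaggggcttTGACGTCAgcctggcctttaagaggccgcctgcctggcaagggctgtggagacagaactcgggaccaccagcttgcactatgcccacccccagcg

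*Th* holds TGACGTCA starting 45 bases before its start and *Foxd3* holds it 233 bases before, a motif found in 1.79% of 32851 promoters of this length. *Prph* has TATAAA 31 bases before its start (13.6% of promoters). None of the 6 promoters that could be matched, those of *Phox2a*, *Th*, *Dbh*, *Foxd3*, *Prph* and *Chrna3*, holds AGGTCA in this window, as 16.3% of promoters do, and *Dbh* holds none of the 4 motifs. The GC box (35.7% of promoters) was in *Phox2a*, *Th*, *Prph* and *Chrna3*. These are matches of letters only, and binding was not measured.

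The genes around the 7 were described through 6 lists: crest and Schwann cells, autonomic transcription factors, catecholamine synthesis and transport, cholinergic transmission, pan-neuronal genes, and guidance and neurotrophic signals. Of their 105 genes, 102 were found and 60 were above 1 RPKM in at least 1 genotype. By limma with adjustment over all rows, 3 of the 60 passed (5.0%), against 2.29% of 14657 genes; 1 was higher in Dio3-/- hearts (1.91% of all genes) and 2 were lower (0.382%). They were *Ache*, *Chrna7* and *Tubb3*, and for all 3 the limits on single hearts show separate genotypes (3.85% of genes above 1 RPKM). All 3 lost the call with Welch's test.

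In the cholinergic list, 2 of 4 tested genes fell and 0 rose, and the median log2 fold change was -0.62, against 0.04 over all tested rows. Of these 4, *Chrna7* and *Slc5a7* were above 1 RPKM only in Dio3+/+ hearts, so the filter itself favoured a negative median. The median is therefore not read as a fall of the list. Without the filter, limma called 2 of the 11 genes found, again *Ache* and *Chrna7*. *Ache*, acetylcholinesterase, which breaks down acetylcholine and is also made by muscle and blood cells, fell from 9.67 RPKM (CV 0.09) to 6.07 RPKM (CV 0.08). Every Dio3+/+ heart was above every Dio3-/- heart by the limits (at least 8.29 against at most 6.85 RPKM). Its log2 fold change was -0.63 ± 0.08 (SE), with an adjusted P of 0.00561 by limma and 0.0697 by Welch's test, and 4 of its 6 rows passed, all rows being lower. *Chrna7*, the alpha 7 nicotinic receptor, fell from 2.07 RPKM (CV 0.22) to 0.83 RPKM (CV 0.19), a change of -0.95 ± 0.14 (SE) on the log2 scale, with an adjusted P of 0.0123 by limma and 0.11 by Welch's test. *Bche*, the second cholinesterase, had 13.14 and 13.07 RPKM, and *Slc5a7*, the choline transporter of cholinergic terminals, 1.02 RPKM (CV 0.68) and 0.49 RPKM (CV 0.13). *Chat*, which makes acetylcholine and defines cholinergic neurons, was at 0.01 RPKM in both genotypes and *Vip* at 0 and 0.01 RPKM.

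In the pan-neuronal list, 1 of 11 tested genes rose and 0 fell. *Tubb3*, a neuronal beta tubulin, rose from 2.08 RPKM (CV 0.10) to 3.54 RPKM (CV 0.10), a change of 0.65 ± 0.09 (SE) on the log2 scale, with an adjusted P of 0.00856 by limma and 0.0697 by Welch's test. Other axon genes did not pass. *Uchl1* had 37.73 and 37.65 RPKM, *Ncam1* 32.99 and 30.33 RPKM and *Gap43* 11.46 and 10.96 RPKM, genes that heart muscle and mesenchyme can also express. The neurofilament gene *Nefl* had 1.39 RPKM (CV 0.78) and 0.75 RPKM (CV 0.26), opposite in direction to *Prph*, and *Stmn2*, an axon growth gene, 1.19 and 1.27 RPKM. The median log2 fold change of the list was -0.003.

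In the catecholamine list, 0 of 11 tested genes passed, and the median log2 fold change was 0.02. *Ddc*, which makes dopamine from the product of *Th*, was far above *Th* and *Dbh*, at 28.67 RPKM (CV 0.12) and 33.14 RPKM (CV 0.08) with an adjusted P value of 0.251 by limma. *Slc18a2*, the vesicular monoamine transporter, had 3.76 and 3.83 RPKM. *Qdpr*, which regenerates the cofactor of *Th*, had 15.62 and 17.17 RPKM. *Slc6a2*, the noradrenaline transporter, had 0.07 and 0.10 RPKM, and *Npy*, a peptide that sympathetic terminals release, 1.10 and 0.94 RPKM. *Pnmt*, which makes adrenaline, had 0.42 and 0.33 RPKM, above *Th* and *Dbh* in both genotypes on the RPKM scale.

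In the list of autonomic transcription factors, 0 of 8 tested genes passed and the median log2 fold change was 0.0003. Its most abundant genes, *Sox4* (60.53 and 55.97 RPKM), *Hand2* (53.72 and 59.78 RPKM) and *Sox11* (25.25 and 19.19 RPKM), are also genes of the heart itself.

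In the crest and Schwann list, 0 of 9 tested genes passed and the median log2 fold change was -0.04. *Ednrb*, an endothelin receptor of crest and endothelial cells, had 53.25 and 61.25 RPKM, *Sox9* 31.25 RPKM (CV 0.46) and 24.17 RPKM (CV 0.07), and the myelin gene *Pmp22* 28.00 and 27.23 RPKM. *Erbb3*, the neuregulin receptor that Schwann cells need, had 4.47 RPKM (CV 0.42) and 4.61 RPKM (CV 0.12), above the level of *Sox10* in RPKM in both genotypes, and did not pass the test. *Cdh19*, a cadherin of Schwann cell precursors, was below 1 RPKM, with 0.27 RPKM (CV 0.01) and 0.21 RPKM (CV 0.04). Such small CVs at this level are not a measure of precision, as no counting error could be given. By the limits, which rest on these CVs, its genotypes were separate, as were those of 0.954% of genes between 0.05 and 1 RPKM. Among all rows above 0 its unadjusted P value was 0.0173 and its adjusted P value 0.211 by limma. With a pseudocount of 0.1 RPKM its adjusted P value was 0.371 by limma.

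In the list of guidance and neurotrophic signals, 0 of 17 tested genes passed and the median log2 fold change was -0.13. *Nrp1* had 45.73 and 49.04 RPKM, *Slit2* 28.17 and 25.71 RPKM and *Robo1* 23.56 and 20.82 RPKM. *Sema3a*, which repels sympathetic axons, had 15.96 RPKM (CV 0.23) and 13.11 RPKM (CV 0.09). The receptor gene *Ret* was scarce, with 0.09 RPKM (CV 0.57) and 0.24 RPKM (CV 0.21), and among all rows above 0 it had an unadjusted P value of 0.00182 and an adjusted P value of 0.0915 by limma.

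**Figure D3:**
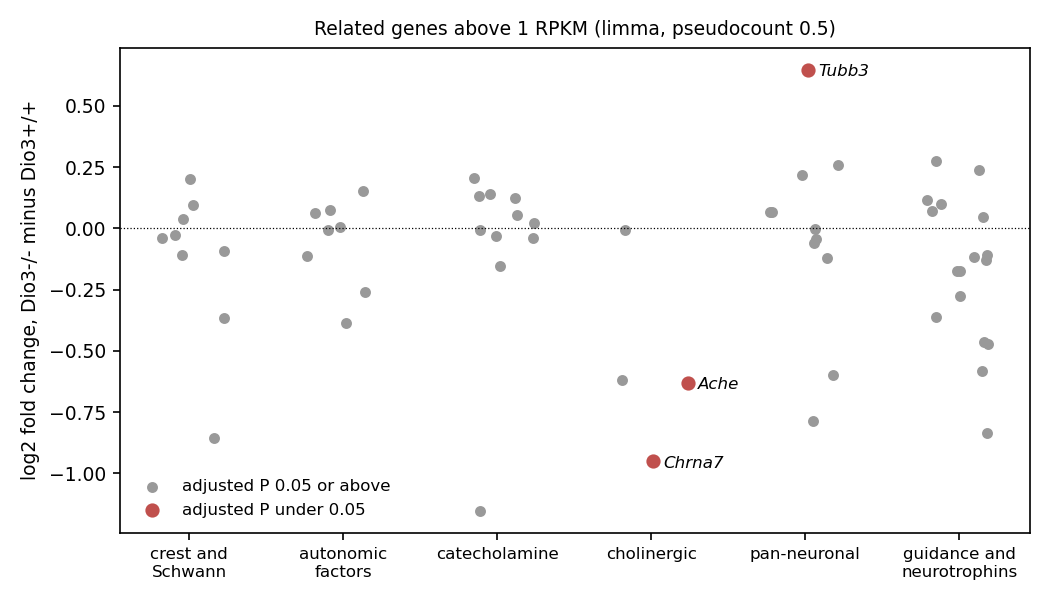
Log2 fold change (y axis, log2(RPKM + 0.5) scale, positive is higher in Dio3-/- hearts) of the 60 related genes above 1 RPKM, by list (x axis). The 3 that passed limma with adjustment (red) are Ache and Chrna7, lower, and Tubb3, higher; grey points did not pass.

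The wide spread of *Sox10* and *Foxd3* in Dio3+/+ hearts was shared by other genes of the related lists. A CV above 0.4 in Dio3+/+ hearts was found for 14 of the 60 tested related genes, against 3.9% of genes above 1 RPKM, and in Dio3-/- hearts for 4, against 1.62%. *Ngfr*, the neurotrophin receptor of crest and Schwann cells, had 4.40 RPKM (CV 1.13) in Dio3+/+ and 2.21 RPKM (CV 0.17) in Dio3-/- hearts. *Scg2*, of neurosecretory vesicles, had 1.10 RPKM (CV 1.33) and 0.22 RPKM (CV 0.43), *Dcx*, of young neurons, 1.31 RPKM (CV 1.34) and 0.55 RPKM (CV 0.73), and *Gfra3*, of crest and sympathetic neurons, 0.22 RPKM (CV 1.47) and 0.04 RPKM (CV 0.44). Some CVs among 4 hearts are so wide that 1 heart must hold more than 50% of the summed level, as for 8 of the 102 related genes in Dio3+/+ and 3 in Dio3-/- hearts. Of the 60 above 1 RPKM it was so for 2 in Dio3+/+ hearts (*Scg2* and *Dcx*) and 0 in Dio3-/- hearts, against 0.635% and 0.205% of all genes at that level. Of the 42 others it was so for 6 and 3, and for genes between 0.05 and 1 RPKM the shares were 9.03% and 6.36%. None of the 7 genes reached it, although *Foxd3* (CV 1.08) came near. Whether the same heart was high for these genes cannot be read from the means. *Scg2*, *Dcx*, *Slc5a7* and *Nefl*, all with a CV above 0.4 in Dio3+/+ hearts, exceeded 1 RPKM in those hearts only. A single high heart can lift such a mean past the filter, which can add to the Dio3+/+ counts among the 60. How far it did was not tested.

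**Figure D4:**
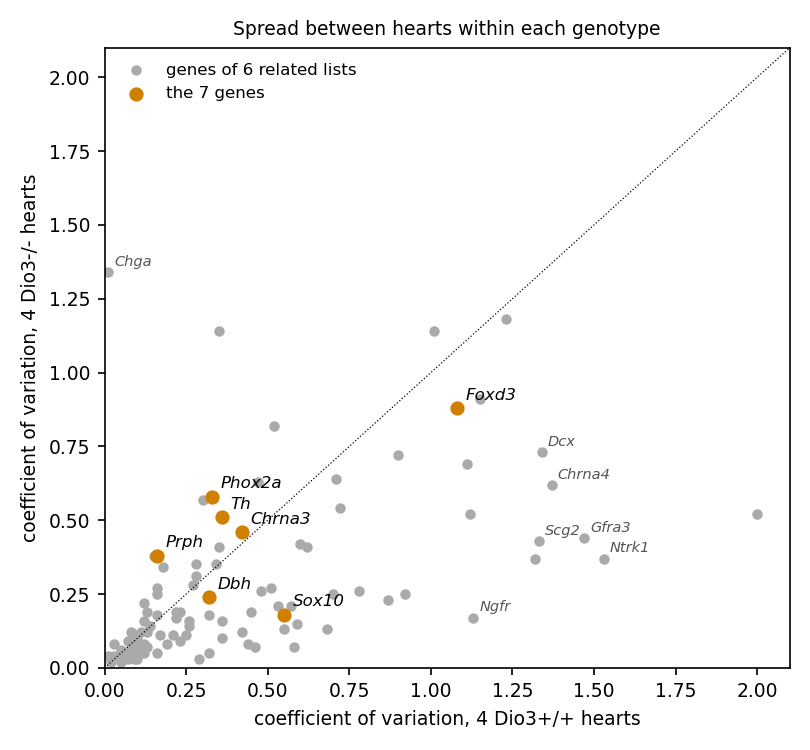
CV between the 4 Dio3+/+ hearts (x axis) against that between the 4 Dio3-/- hearts (y axis) for the 7 genes (orange) and the genes of the 6 related lists (grey; Vip, at 0 in Dio3+/+ hearts, is not drawn), with equal CVs on the dotted line. Sox10 (0.55 and 0.18) and Foxd3 (1.08 and 0.88) lie to the right of the line, as do Ngfr, Scg2, Dcx and Gfra3 at larger Dio3+/+ CVs.

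Markers of other tissues that a dissected heart could carry were listed beside these values. Of 12 central nervous system genes 1 was above 1 RPKM, *En1*, with 1.04 RPKM (CV 1.57) in Dio3+/+ and 0.04 RPKM (CV 0.90) in Dio3-/- hearts, and *Emx2* had 0.33 and 0.07 RPKM. Of 12 sensory neuron genes 2 were above 1 RPKM, *Runx1*, with 3.44 RPKM (CV 1.26) and 0.90 RPKM (CV 0.39), and *Scn10a*, with 1.63 and 2.36 RPKM. *Calca* had 0.86 and 0.60 RPKM, and *Pou4f1*, which defines sensory neurons, 0.04 RPKM in both genotypes. None of these passed by limma after adjustment. The wide spread of *En1* and *Runx1* in Dio3+/+ hearts went the same way as that of *Sox10* and *Foxd3*, and its part in their values was not tested. The 10 liver genes (*Afp*, *Alb* and *Trf* the most abundant) were all higher in Dio3-/- hearts, with a summed level of 24.1 against 127 RPKM, median CVs of 0.89 and 1.04 and 0 of 10 passing, and their part in the values of the 7 genes was not tested. Of 12 foregut and lung genes 4 were tested and 0 passed, *Nkx2-1* having 8.18 and 8.35 RPKM, *Krt18* 7.03 and 6.47 RPKM and *Krt8* 3.07 and 3.20 RPKM. Of the 10 heart muscle genes, *Ryr2* and *Myh6* rose and 8 did not pass.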

How the data were processed

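The hearts of 4 Dio3+/+ and 4 Dio3-/- fetuses, each from an individual mouse, were profiled by total RNA sequencing. Per the labels and the Methods, the authors used FastQC and Novoalign (version 2.08), kept uniquely mapping reads and scaled all samples down to the smallest one. The genome build is not given in the sources used here. The authors deposited 1 table with the mean of each genotype, read as RPKM because the Methods use that unit for their filter, and the CV, a ratio of SD to mean, both rounded to 2 decimals. Its columns of fold changes and q values hold the authors' comparison and were not used. The limits on single hearts take the SD with n - 1, since the largest CV is 2, the most that 4 values can then give.

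For each row, log2(mean + 0.5) and an SD derived from the CV were tested with limma (version 3.58.1, R version 4.3.3; mean-variance trend, 6 residual degrees of freedom, 3.522 prior degrees of freedom), with Benjamini-Hochberg adjustment over the 32703 rows that exceeded 1 RPKM in either genotype. As none of the 7 genes passed that filter, their P values come from the same fit without it (49226 rows). The method takes the log of a mean for the mean of logs. Tested on simulated data with the filter, it recovered 195 of 200 changed rows, with 10 false calls among 32583 rows. These changed rows were drawn from means well clear of the 1 RPKM filter, so recovery just above it was not tested. Without the filter it recovered 50 of 200 changed rows between 0.05 and 1 RPKM, with 4 false calls among 48503 rows. The members and lists were chosen with earlier results of these data known. Genes named are the 7 members, list genes that passed, the 3 most abundant of each list and the heart genes, except some that are not reported here; partners of the members and genes named for their spread or unadjusted P value were chosen after their values were seen. The rule for genes of like pattern applied to members above 1 RPKM and so named none. A list gene was counted by its highest row. P values measure the spread between fetuses whose litters are not given.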

Additional observations from a re-analysis of the deposited data

How the results depend on the processing

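Without single hearts, no heart could be left out. No paired analysis was possible because the table holds genotype means and no value for a numbered heart. After adjustment, 0 of the 7 passed in each of the 4 settings that tested them, all without an expression filter, and the alternatives that kept a filter tested none of them. Taking means and CVs as printed left 0 of the 7 separate between genotypes. The sign of the log2 fold change held for 6 of the 7 with each pseudocount and with centring; for *Th* centring made it -0.0004, and the second row of *Chrna3* had 0.05 in place of -0.12. With a pseudocount of 0.1 the log2 fold changes of all 7 grew by over 1.5 times: *Sox10* from -0.26 to -0.41, *Foxd3* from -0.28 to -0.94, *Phox2a* from -0.02 to -0.06, *Th* from 0.02 to 0.06, *Dbh* from 0.08 to 0.19, *Prph* from 0.28 to 0.70 and *Chrna3* from -0.12 to -0.26. With a pseudocount of 1 *Prph* had 0.16, and the others also moved toward 0. For the related lists, 3 calls became 1 with a mean over both genotypes above 5 RPKM (29 genes tested, with *Chrna7* and *Tubb3* below it), and 0 with Welch's test on the log scale or, without a filter, on the RPKM scale. Adjusted P values over the alternatives ran from 0.00393 to 0.14 for *Ache*, from 0.0115 to 0.245 for *Chrna7* and from 0.00833 to 0.137 for *Tubb3*, with the sign kept in each. The count of rows called among all, 703, was 431 without a filter, 319 with 1 row per gene, 69 with Welch's test, 394 with centring (a shift of 0.0379) and 414 with each CV raised by 0.005. The pseudocount of 0.1, Welch's test on RPKM and centring, each without a filter, and the limits as printed were chosen after the data were seen. The table holds no read counts, so no counting error could be given for these scarce transcripts.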

Other observations

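Other derivatives and neighbours of the crest lineage were listed too. Of 7 melanocyte genes, 4 were tested and 0 passed by limma, with *Mitf* at 16.94 and 19.10 RPKM, *Tyr* at 5.99 and 5.85 RPKM and *Kit* at 5.59 and 6.01 RPKM in Dio3+/+ and Dio3-/- hearts. *Tyrp1*, of pigment granules, was listed at 0 and at 0.01 RPKM. Of 7 adrenal cortex genes, 2 were tested and 1 passed, against 2.29% of 14657 genes (0.382% lower in Dio3-/- hearts). It was *Hsd3b1*, with 1.64 RPKM (CV 0.21) and 0.68 RPKM (CV 0.40), above 1 RPKM in Dio3+/+ hearts only. Its log2 fold change was -0.86 ± 0.18 (SE), with an adjusted P of 0.0474 by limma. Without a filter the adjusted P was 0.0745 by limma, so the call depended on the filter. *Star* had 1.07 and 1.26 RPKM and *Cyp11a1*, the first enzyme of steroid synthesis, 0.03 and 0.02 RPKM. *Chga*, of chromaffin and neuroendocrine granules, had 0.09 RPKM (CV 0.01) in Dio3+/+ and 0.33 RPKM (CV 1.34) in Dio3-/- hearts, where 1 heart therefore held more than 50% of the summed level.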
